A study of Mus musculus with 24 samples.

Results

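RNA-seq levels of 45 DNA damage signaling and repair genes were examined in 6 mouse small cell lung cancer (SCLC) cell lines before and after p53 was switched back on. The 45 genes were listed by symbol, and all 45 were found among the 25239 genes of the table. They comprised 16 genes of homologous recombination, 9 of the Fanconi anemia pathway, 9 of break sensing and checkpoint signaling, 5 of end joining, 2 of mismatch repair and 4 of single-strand break and excision repair. All 45 passed the filter on low values (a level of at least 1 TPM in at least 3 libraries, where TPM is the share of a library's transcripts scaled to a fixed total), as did 14104 genes in all.

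All lines were grown from individual lung tumors of Trp53 XTR/XTR mice with floxed Rb1 and Rbl2 (flox/flox for both) and Rosa26 FlpO-ER, a tamoxifen-activated recombinase. Tumors were started with an adenovirus that drives Cre from the CMV promoter, which is not restricted to a cell type, so the lines of every group, controls included, share loss of Rb1 and Rbl2 and a gene trap that holds Trp53 off. The study sorted the lines by their fate after p53 returns: the Type D lines 4711-1, 4711-18 and 4716-11 die, whereas 4711-11, 4716-10 and 4716-14, the Type V lines, remain viable. There were 4 libraries per line, collected at 72 h, namely vehicle (Control), cyclosporin A (Control + CsA), 4-hydroxytamoxifen, which removes the trap (Restored), and both agents (Restored + CsA), so that 24 libraries formed 8 groups of 3 lines. CsA is a drug that binds cyclophilins. A replicate is a cell line, and each line was sampled once per treatment.

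Homologous recombination copies an intact sister chromatid to mend a double-strand break, and the Fanconi anemia pathway unhooks crosslinks between DNA strands and hands the resulting break to recombination. Sensors and kinases (the Mre11, Rad50 and Nbn complex, Atm, Atr, Chek1 and Chek2) detect breaks and stalled forks and halt the cell cycle, and end joining religates broken ends without a template. p53 is activated by this signaling and induces genes that arrest the cycle. Many recombination and Fanconi genes are known to be transcribed mainly in S and G2 phase, and SCLC cells divide fast.

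Promoter windows (250 bases before the start, from RefSeq on GRCm38.p6) are shown for the 2 members with the most negative and the 2 with the most positive mean change after restoration, among the 13 members whose window held no annotated exon. The Lig4 window precedes a start inside the gene, since it lies within the Lig4 model of GENCODE release M21 (GRCm38 chr8:9969049-9977686, minus strand). The capitals mark matches, on either strand, to CCAAT, known to be bound by NF-Y and read as its complement where the match lies on the other strand, or to the CHR letters TTTGAA or TTCGAA, known from cell cycle repression.
Rad51ap1, chr6:126939588-126939837, minus strand: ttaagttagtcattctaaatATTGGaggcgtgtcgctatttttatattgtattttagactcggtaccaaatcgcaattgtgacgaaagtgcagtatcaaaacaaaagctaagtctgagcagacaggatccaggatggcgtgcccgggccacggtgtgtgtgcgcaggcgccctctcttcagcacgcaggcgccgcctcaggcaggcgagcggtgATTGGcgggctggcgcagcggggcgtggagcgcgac
Polq, chr16:37011536-37011785, plus strand: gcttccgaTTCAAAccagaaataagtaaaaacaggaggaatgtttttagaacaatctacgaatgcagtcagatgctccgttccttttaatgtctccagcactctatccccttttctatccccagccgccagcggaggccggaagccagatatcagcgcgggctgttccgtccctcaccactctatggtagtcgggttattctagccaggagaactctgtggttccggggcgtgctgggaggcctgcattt
Msh6, chr17:87974800-87975049, plus strand: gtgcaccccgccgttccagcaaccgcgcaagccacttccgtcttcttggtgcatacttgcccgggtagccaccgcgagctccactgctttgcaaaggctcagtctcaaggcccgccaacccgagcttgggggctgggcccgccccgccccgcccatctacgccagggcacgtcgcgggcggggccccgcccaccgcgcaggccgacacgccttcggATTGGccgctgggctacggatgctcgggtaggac
Lig4, chr8:9976312-9976561, minus strand: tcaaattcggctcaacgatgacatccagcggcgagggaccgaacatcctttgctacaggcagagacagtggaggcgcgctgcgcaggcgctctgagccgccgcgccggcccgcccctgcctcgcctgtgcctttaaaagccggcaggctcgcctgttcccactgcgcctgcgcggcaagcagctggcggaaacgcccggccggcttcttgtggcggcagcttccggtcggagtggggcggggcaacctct

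Promoter windows were found for 37 of the 45 members, 42 windows in all. The NF-Y letters stood in 23 of the 42 (54.8%), against 35.0% of the 13749 windows of tested genes and 33.8% of all 32851 windows. The E2F letters TTTCCCGC or TTTGGCGC stood in 6 windows (14.3%; Bard1, Brca2, Chek2, Mdc1, Fancg and Xrcc6), against 2.36% and 1.3%. The CHR letters stood in 3 (7.14%; Bard1, Polq and Atr), against 12.3% and 17.1%. Of 9 windows of members that fell after restoration 1 held E2F, 2 CHR and 5 NF-Y letters, and of the other 33 windows 5, 1 and 18 did. A match is only a match of letters. Windows of 24 of the 37 members overlapped an exon of GENCODE release M21.

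Trp53 was checked first. It measured 10.5 to 15.3 TPM in the 12 libraries without and 181 to 253 TPM in the 12 libraries with restoration, and 5 p53 targets (Cdkn1a, Mdm2, Ccng1, Zmat3 and Sesn2) were called higher in both types. Rb1 was measured at 7.75 to 17.3 TPM in Control libraries, 22.1 to 40.6 TPM in Type D Restored and 48.1 to 68.8 TPM in Type V Restored. Rbl2 was measured at 4.49 to 14.6 TPM in Control and 4.99 to 20.6 TPM in Restored libraries. These levels do not test the deletion of either gene, since reads outside the deleted part still count. The labelled cell type was checked too: of 7 SCLC and neuroendocrine markers, Chga, Calca and Neurod1 lay between 0 and 0.105 TPM in every library, and Ncam1 (4.46 to 27.3 TPM) was the one marker above 1 TPM in every library. Uchl1 measured 18.9 to 40.9 TPM in Type V Control and 0.168 to 1.88 TPM in Type D Control. Insm1 measured 1.59 to 18.1 TPM in Type V Control and 0 to 3.07 TPM in Type D Control. The 7 summed to 9.63 to 20.4 TPM in Type D Control and 33 to 79.1 TPM in Type V Control, so the lines are called SCLC from their labels and not from these markers. Of 6 fibroblast markers, 5 reached 1 TPM in Type V Control, where their sum was 192 to 494 TPM, and 1 in Type D Control, with a sum of 0.614 to 1.34 TPM. Endothelial markers summed to at most 1.07 TPM, and of 6 immune markers Cd3e was at 0 and Ptprc and Adgre1 at most 0.154 TPM in every library, while Cd68, a lysosomal protein, rose after restoration (1.95 and 1.28 log2 in Type D and Type V, adjusted p = 0.000134 and 0.00766). Depth is unknown, because TPM keeps no read numbers. In these bulk samples, fewer cells of a type and less RNA per cell cannot be told apart.

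Before restoration the members spanned a wide range of levels. Averaged over the 6 Control libraries, Parp1, the enzyme that marks single-strand breaks with ADP-ribose chains, was highest at 151 TPM. It was followed by Topbp1, which activates Atr, at 121 TPM and by the end joining subunit Xrcc6 (Ku70) at 96.7 TPM. The mismatch recognition subunit Msh6 stood at 92.4 TPM and Xrcc5 (Ku80) at 63.5 TPM. The lowest were Rmi1, a partner of the Blm helicase, at 5.41 TPM, the end joining kinase Prkdc at 5.6 TPM and the recombination translocase Rad54b at 5.88 TPM. Brca1 (35.4 TPM) was more abundant than its partners Bard1 (14.6 TPM), Palb2 (7.18 TPM) and Brca2 (12.8 TPM). Across all 24 libraries no member exceeded 229 TPM or went below 0.449 TPM.

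The first comparison asked what restoring p53 does to these genes in lines that die. In Type D lines, 10 of the 45 members fell and 1 rose, counting a gene as called where its adjusted p was below 0.05 and it moved by 1 log2 or more. Among all genes tested 2.44% fell and 4.49% rose by this rule. The members were chosen with earlier results of these data known, so here and below such shares are description and no test of the group. The fallers were 5 of 16 recombination genes (Rad51ap1, Eme1, Exo1, Rad54l and Bard1), 4 of 9 Fanconi genes (Fancd2, Fanci, Fancb and Fanca) and Polq of end joining, and the riser was Msh6. None of the 9 sensing and checkpoint genes and none of the 4 single-strand break and excision genes was called. The median change of the 45 members was -0.49 log2, against 0.07 over all genes, and it was -0.32, -0.72 and -0.34 in lines 4711-1, 4711-18 and 4716-11.

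The same comparison was made in lines that stay viable. In Type V 9 members fell and 0 rose, against 1.9% and 3.39% of all genes. The 9 were the Type D fallers other than Fanca, whose Type V change of -0.73 ± 0.324 log2 (SE) did not pass (adjusted p = 0.189). The median change of the 45 was -0.34 log2, against 0.05 over all genes, and -0.37, -0.59 and -0.06 in lines 4711-11, 4716-10 and 4716-14. All 9 shared fallers were lower after restoration in 6 of 6 lines. By adjusted p alone, 13 members fell and 1 rose in Type D, where 5.05% of genes fell and 7.82% rose, and 12 fell and 1 rose in Type V, where 4.57% fell and 5.38% rose.

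The lines of a type are paired across treatments, and a fit with the cell line as a block moved the counts by adjusted p alone most. With the block 24 members fell and 4 rose in Type D, beside 17.6% and 27.6% of all genes, and 22 fell and 3 rose in Type V, beside 17.8% and 22.8%. By the rule that adds 1 log2, the block gave 12 lower and 1 higher in Type D, beside 4.16% and 7.05% of genes, and 10 lower and 0 higher in Type V, beside 2.93% and 5.74%. It added Blm, a helicase that dissolves recombination intermediates, in both types (-1.07 log2, adjusted p = 0.000913 in Type D, and -1.26 log2, adjusted p = 0.00029 in Type V) and Brca1 in Type D (-1.0 log2, adjusted p = 0.00524). Single lines weighed on the counts without the block: 7 members were called in Type D without line 4711-18, where the falls were deepest, and 4 in Type V without line 4711-11. A fit to the compared groups alone, with fewer libraries behind each estimate, called 4 members in each type, Rad51ap1, Exo1, Eme1 and Polq in Type D and Rad51ap1, Eme1, Fancb and Fancd2 in Type V.

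**Figure D1:**
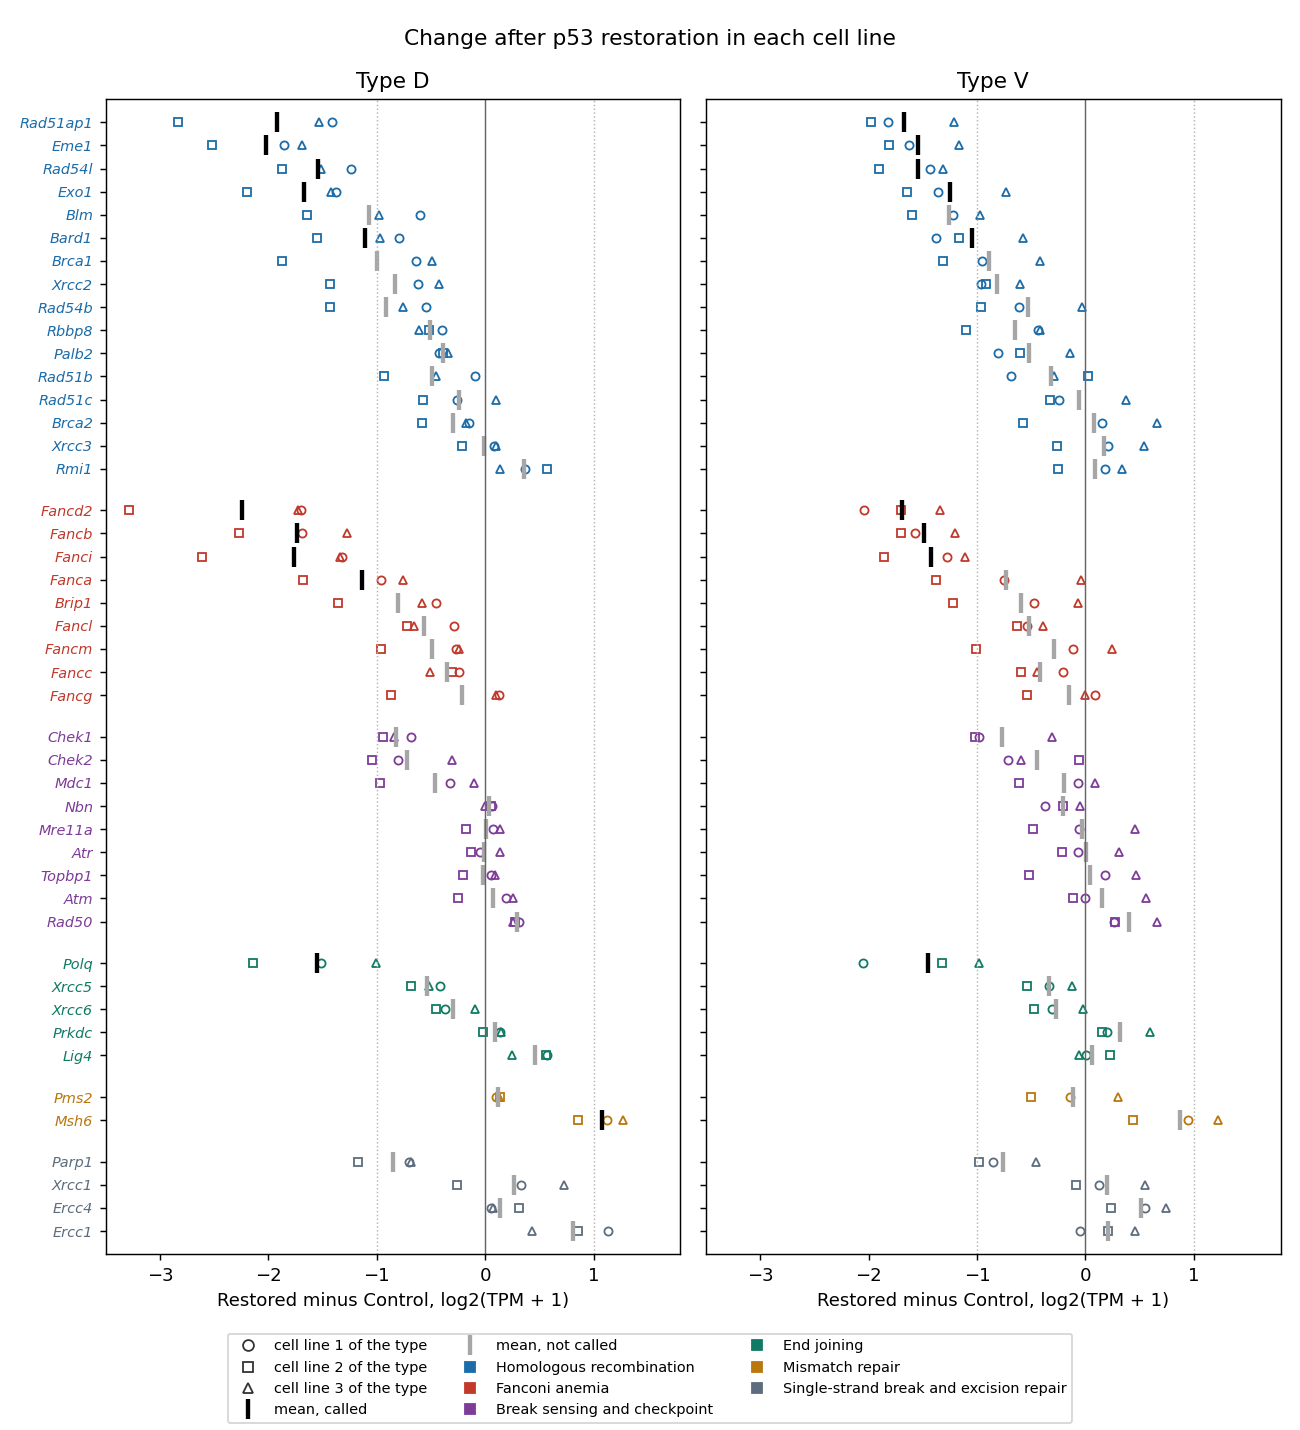
Restored minus Control on the log2(TPM + 1) scale for each of the 45 members, with Type D on the left and Type V on the right. Open symbols are cell lines 1 to 3 of the type, bars are means (black where called, grey where not), dotted lines mark 1 log2 and colors mark the 6 gene groups. Called falls sit in the recombination and Fanconi blocks and at Polq, and the only called rise is Msh6 in Type D.

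Genes of G2 and mitosis fell with the repair genes, and genes of DNA replication did not pass without the cell line block. Of 20 proliferation genes the same 10 were called lower in each type, namely Mki67, Top2a, Ccnb1, Ccnb2, Ccna2, Cdk1, Plk1, Aurka, Aurkb and Bub1 (-3.79 to -2.3 log2 in Type D and -2.56 to -1.54 log2 in Type V). The other 10, Mcm2 to Mcm7, Pcna, Ccne1, Ccne2 and Cdc6, lay between -0.72 and 0.45 log2 in Type D and between -0.84 and 0.36 log2 in Type V. The median of the 20 therefore falls between these blocks, at -1.51 log2 in Type D (-1.24, -2.05 and -1.36 in its 3 lines) and -1.19 log2 in Type V (-1.14, -1.73 and -0.72). With the cell line as a block, 11 of the 20 passed as lower by adjusted p in Type D and 12 in Type V, beside 17.6% and 17.8% of all genes. The line with the lowest proliferation median was also the line with the lowest repair gene median in each type. Fibroblast markers also moved with restoration in Type V, where their sum went from 192 to 494 TPM in Control to 88.7 to 193 TPM in Restored and Col1a2 fell by 2.86 on the log2 scale (adjusted p = 0.00594), with Col1a1 and Pdgfrb called lower with the block. Of the 4 tested, 3 had a fitted change below 0 and Dcn did not (0.08 log2). Dcn went from 62.1, 28 and 24.7 TPM to 71.9, 36.3 and 19.5 TPM. In Type D Restored the fibroblast markers summed to 0.48 to 1.93 TPM. The part of either marker list in the change of the repair genes was not tested.

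Among recombination genes, the deepest falls in Type D were those of Eme1, Rad51ap1 and Exo1. Rad51ap1 encodes a DNA-binding protein that promotes strand pairing (GRCm38 chr6:126923050-126939587, minus strand). It measured 50.1, 50.6 and 45.3 TPM in Type D Control and 18.3, 6.26 and 15.1 TPM in Type D Restored, in the order 4711-1, 4711-18 and 4716-11. In Type V it went from 60.1, 68.4 and 39.4 TPM to 16.3, 16.6 and 16.5 TPM, in the order 4711-11, 4716-10 and 4716-14. Control and Restored lines did not overlap in either type, and Type V lines reached nearly one level after starting apart. Its change was -1.92 ± 0.305 log2 in Type D (adjusted p = 0.000238) and -1.67 ± 0.305 log2 in Type V (adjusted p = 0.00121).

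Eme1 is the partner of the Mus81 nuclease, which cuts branched recombination intermediates (GRCm38 chr11:94644996-94653964, minus strand). It went from 18.8, 18.2 and 22.5 TPM to 4.44, 2.35 and 6.28 TPM in the Type D lines. The Type V lines went from 25.2, 25.6 and 19.2 TPM to 7.44, 6.59 and 7.99 TPM. The 2 conditions were again apart in every line, with changes of -2.02 ± 0.239 log2 (adjusted p = 9.7e-06) and -1.54 ± 0.239 log2 (adjusted p = 0.000282). Rad54l, a translocase that promotes strand invasion of the template (GRCm38 chr4:116094264-116123690, minus strand), went from 23.3, 16.2 and 21.8 TPM to 9.26, 3.69 and 6.98 TPM in Type D. In Type V it went from 29.8, 19.7 and 17.6 TPM to 10.4, 4.57 and 6.53 TPM. Both types changed by -1.54 ± 0.366 log2 (adjusted p = 0.00799 and 0.00947), although the Type D call is lost without line 4711-18 (adjusted p = 0.06) or 4716-11 (0.0884) and the Type V call without 4716-10 (0.0908) or 4716-14 (0.0537). Rad51ap1 and Eme1 stayed called in both types whichever line was left out.

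The other called recombination genes were Exo1, a nuclease that resects break ends (-1.67 ± 0.291 and -1.25 ± 0.291 log2, adjusted p = 0.000618 and 0.0083 in Type D and Type V), and Bard1, which pairs with Brca1 (-1.11 ± 0.311 and -1.05 ± 0.311 log2, adjusted p = 0.0231 and 0.037). Leaving out any line of a type ended the call of Bard1 in that type, with adjusted p between 0.064 and 0.129 in Type D and between 0.0644 and 0.24 in Type V, where it was also lost without 4716-11 (0.0847). Exo1 lost its Type V call without 4711-11 (adjusted p = 0.0514) or 4716-10 (0.11). Xrcc2, which acts in strand exchange, changed by -0.83 and -0.82 log2 and passed by adjusted p (0.0174 and 0.0215) but not by size. Rbbp8, which starts resection, passed by adjusted p only in Type V (-0.65 log2, adjusted p = 0.0373; Type D -0.51 log2, adjusted p = 0.1). Brca1 stood at -1.0 and -0.89 log2 (adjusted p = 0.115 and 0.189) and Rad54b by -0.91 and -0.53 log2 (adjusted p = 0.0665 and 0.362).

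Apart from Blm, given above, the rest of the recombination group stayed within -0.52 to 0.36 log2 in both types and did not pass without the block. These were Palb2, Rad51b, Rad51c, Xrcc3, Brca2 and Rmi1. With the block, 11 of the 16 recombination genes passed by adjusted p as lower and 1 as higher in Type D. In Type V 11 passed as lower and 0 as higher. Of all genes 17.6% and 27.6% did so in Type D, and 17.8% and 22.8% in Type V. Brca2, which prepares single-stranded DNA for strand exchange, was at -0.30 log2 in Type D and 0.08 log2 in Type V, and Rad51c at -0.24 and -0.06 log2. The group thus held members with deep falls and members near 0 side by side, from -2.02 to 0.36 log2 in Type D, with a median of -0.87 log2, and -0.74 log2 in Type V.

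**Figure D2:**
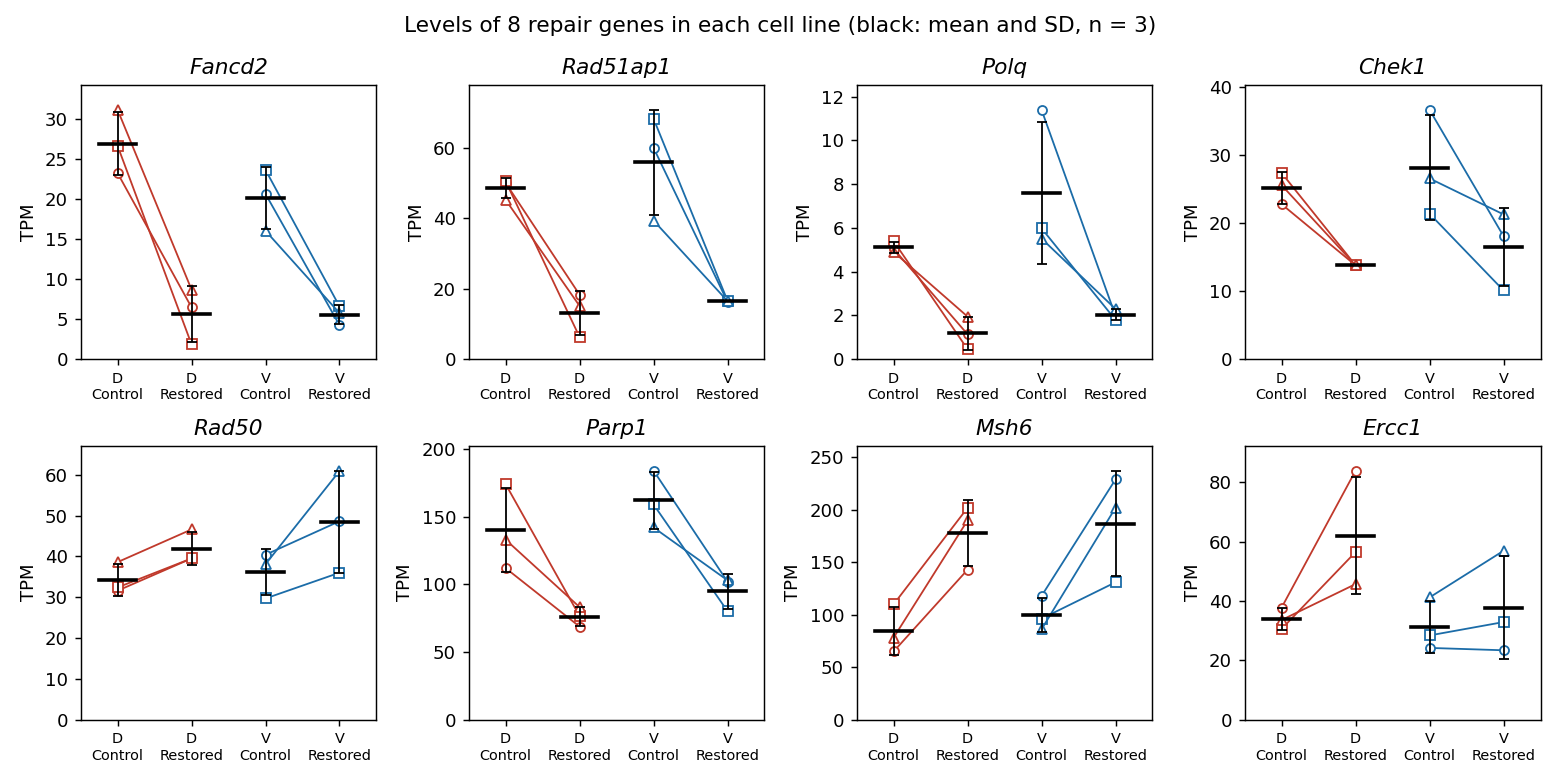
TPM of 8 members in Control and Restored libraries of each type on linear axes from 0, with lines joining the libraries of a cell line (red Type D, blue Type V) and black bars giving the mean and SD over 3 lines. Fancd2, Rad51ap1, Polq, Chek1 and Parp1 are lower and Msh6 and Rad50 higher in every line, while Ercc1 is higher in all 3 Type D lines and in 2 of 3 Type V lines.

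Fancd2 showed the largest mean fall of all 45 members. It is the protein that is monoubiquitinated, with Fanci, as the central step of crosslink repair (GRCm38 chr6:113531682-113597017, plus strand). It measured 23.2, 26.6 and 31.1 TPM in Type D Control and 6.44, 1.82 and 8.66 TPM in Type D Restored. In Type V it measured 20.6, 23.6 and 16 TPM in Control and 4.23, 6.57 and 5.73 TPM in Restored. The change was -2.24 ± 0.379 log2 in Type D (adjusted p = 0.000454), deepest in 4711-18 at -3.29, and -1.69 ± 0.379 log2 in Type V (adjusted p = 0.00635; 0.105 without 4711-11).

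Fanci, its partner (GRCm38 chr7:79391929-79450264, plus strand), went from 17.8, 17.5 and 19.9 TPM to 6.51, 2.02 and 7.25 TPM in the Type D lines. The Type V lines went from 16.6, 18.9 and 12.4 TPM to 6.26, 4.47 and 5.23 TPM. Its changes were -1.76 ± 0.33 log2 (adjusted p = 0.0012) and -1.42 ± 0.33 log2 (adjusted p = 0.0083). Fancb, a subunit of the ligase complex that modifies the pair (GRCm38 chrX:164980592-164997272, plus strand), went from 16.7, 12.6 and 16.6 TPM to 4.5, 1.81 and 6.26 TPM in the Type D lines, and in Type V from 18.9, 17.4 and 14.9 TPM to 5.69, 4.66 and 5.9 TPM. Its changes were -1.74 ± 0.315 log2 (adjusted p = 0.000849) and -1.49 ± 0.315 log2 (adjusted p = 0.00404). Fanci lost its Type V call without 4711-11 (adjusted p = 0.0662) or 4716-10 (0.0953), while Fancb kept its call in each such fit. For all 3 genes the lowest Control line stood above the highest Restored line.

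The other Fanconi genes, subunits of the core complex among them, changed less. Fanca was called in Type D (-1.14 ± 0.324 log2, adjusted p = 0.0251) and not in Type V, a difference that did not itself pass (-0.41 ± 0.459 log2, adjusted p = 1). The Type D call was kept by no fit with 1 Type D line left out (adjusted p = 0.107, 0.208 and 0.092). Fancl, the ubiquitin ligase itself, passed by adjusted p in Type D (-0.56 log2, adjusted p = 0.0443) and stood at -0.52 log2 in Type V (adjusted p = 0.0708). Brip1, the helicase known as Fancj, was at -0.80 and -0.59 log2, Fancm at -0.49 and -0.29, Fancc at -0.35 and -0.42, and Fancg at -0.21 and -0.15, none of which passed without the block. With the block, 7 of the 9 Fanconi genes passed as lower by adjusted p in each type, beside 17.6% and 17.8% of all genes. All 9 Fanconi genes had a fitted change below 0 in both types, with medians of -0.80 and -0.59 log2.

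No break sensor or checkpoint kinase was called. The 9 genes had medians of -0.01 log2 in Type D and -0.03 log2 in Type V, and none passed by adjusted p in either type without the block. With it, Chek1 and Chek2 passed as lower in Type D, and Chek1 as lower and Rad50 as higher in Type V. Atm was at 0.07 and 0.15 log2, Atr at -0.01 and 0.01, Mre11a at 0.01 and -0.03, Nbn at 0.04 and -0.21, Topbp1 at -0.02 and 0.04 and the chromatin adaptor Mdc1 at -0.46 and -0.20. The effector kinases sat below these upstream genes.

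Chek1, the kinase downstream of Atr, went from 22.8, 27.4 and 25.6 TPM to 13.8 TPM in all 3 lines of Type D (-0.82 ± 0.275 log2, adjusted p = 0.0565). In Type V it went from 36.7, 21.4 and 26.6 TPM to 18.1, 10.1 and 21.3 TPM (-0.77 ± 0.275 log2, adjusted p = 0.0872). It was lower in 6 of 6 lines, just short of the threshold without the block, and with the block its adjusted p was 0.00111 and 0.00206, still under 1 log2. Chek2, the kinase downstream of Atm, went from 30.4, 37.6 and 32.3 TPM to 17.1, 17.8 and 25.9 TPM in Type D (-0.72 ± 0.245 log2, adjusted p = 0.0622). In Type V it went from 20.3, 23.5 and 25 TPM to 12, 22.5 and 16.3 TPM (-0.45 ± 0.245 log2, adjusted p = 0.303), with ranges that overlapped. Rad50 was higher in 6 of 6 lines, from 31.6, 32.4 and 38.6 TPM to 39.5, 39.5 and 46.6 TPM in Type D, and in Type V from 40.4, 29.7 and 38.1 TPM to 48.6, 36 and 60.9 TPM, yet by only 0.29 ± 0.192 and 0.40 ± 0.192 log2 (adjusted p = 0.397 and 0.234).

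Polq was the one end joining gene called. This polymerase of microhomology-mediated joining (GRCm38 chr16:37011786-37095417, plus strand) went from 5.04, 5.39 and 4.9 TPM to 1.13, 0.449 and 1.94 TPM in Type D. In Type V it went from 11.4, 5.98 and 5.51 TPM to 1.98, 1.79 and 2.29 TPM. Its changes were -1.55 ± 0.306 log2 (adjusted p = 0.0019) and -1.45 ± 0.306 log2 (adjusted p = 0.00404), and because its Restored levels are near the pseudocount these understate the ratio of TPM. It lost its call without 4711-18 in Type D (adjusted p = 0.0573) and without 4711-11 in Type V (adjusted p = 0.0539).

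None of the 4 genes of classical end joining passed without the block. With it, Xrcc5 (adjusted p = 0.000457), Xrcc6 (0.0449) and Lig4 (0.00216) passed by adjusted p in Type D and Xrcc5 (0.0143) in Type V, all under 1 log2. Xrcc5 went from 57.3, 55.1 and 74.9 TPM to 42.7, 33.9 and 52 TPM in Type D, and in Type V from 81.7, 66.3 and 45.9 TPM to 64.1, 45.2 and 42.1 TPM, lower in 6 of 6 lines by -0.54 ± 0.249 and -0.34 ± 0.249 log2 (adjusted p = 0.182 and 0.499). Its partner Xrcc6 was at -0.30 and -0.27 log2, Prkdc at 0.09 and 0.32 log2, and the ligase Lig4 at 0.46 and 0.06 log2.

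Msh6 was the one member to rise by the full rule. It takes part in recognizing mispaired bases (GRCm38 chr17:87975062-87990892, plus strand). It went from 65.1, 110 and 78.3 TPM to 143, 202 and 190 TPM in the Type D lines, and in Type V from 118, 96.3 and 86.2 TPM to 229, 131 and 202 TPM. All 6 lines were higher, and Restored levels lay above Control levels in both types. The change was 1.08 ± 0.256 log2 in Type D (adjusted p = 0.00769) and 0.87 ± 0.256 log2 in Type V (adjusted p = 0.0354), where it passed by adjusted p but not by size. The Type D call sits at the threshold: it was 0.99 log2 under median-ratio scaling, and 0.99 log2 with an adjusted p of 0.119 without 4716-11. Pms2, which acts after mismatch recognition, went from 21.7, 22.1 and 24.9 TPM to 23.4, 24.4 and 27.4 TPM in Type D, and in Type V from 26.7, 55.8 and 20.5 TPM to 24.1, 39.3 and 25.6 TPM, with no change that passed (0.12 and -0.11 log2, adjusted p = 0.902 and 0.927).

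Parp1 fell by less than 1 log2 in both types. It went from 112, 174 and 133 TPM to 68.8, 76.6 and 83.2 TPM in the Type D lines, and in Type V from 184, 159 and 142 TPM to 102, 80.2 and 103 TPM. No Restored line reached the lowest Control line of its type, and the changes of -0.85 ± 0.184 log2 (adjusted p = 0.0042) and -0.76 ± 0.184 log2 (adjusted p = 0.0106) passed by adjusted p.

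Ercc1, which cuts damaged strands together with Ercc4, went from 37.8, 30.6 and 33.6 TPM to 83.9, 56.5 and 45.7 TPM in Type D. All 3 lines were higher (0.81 ± 0.315 log2, adjusted p = 0.106; 8.4e-05 with the block). In Type V it went from 24.2, 28.4 and 41.2 TPM to 23.4, 32.9 and 56.9 TPM (0.21 ± 0.315 log2, adjusted p = 0.807), and the ranges overlapped. Ercc4 was at 0.14 and 0.51 log2 and the scaffold Xrcc1 at 0.27 and 0.20 log2, and neither passed without the block. With the block, 1 of the 4 genes of this group passed as higher by adjusted p in each type.

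**Figure D3:**
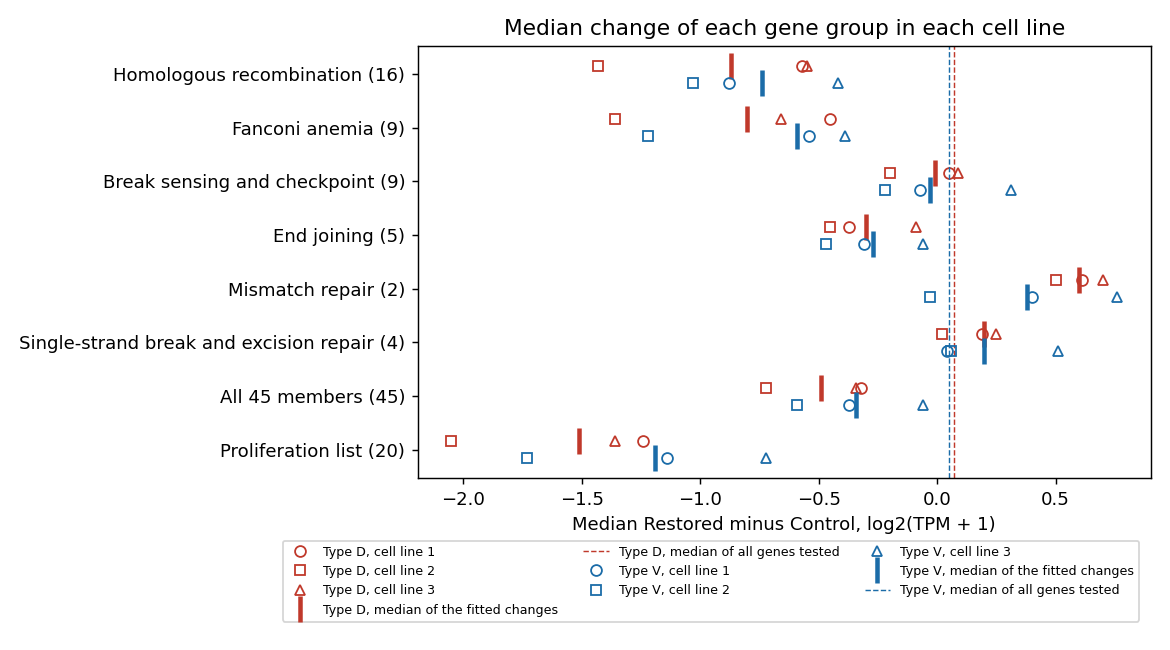
Median Restored minus Control on the log2(TPM + 1) scale of each gene group in each of the 6 lines (open symbols; red Type D, blue Type V), with the median of the fitted changes as a bar, the number of genes in parentheses and the median of all genes tested as a dashed line. The recombination and Fanconi medians lie below 0 in all 6 lines, those of the sensing group on both sides of 0, and the proliferation list lies lowest.

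In 81 other listed genes of DNA repair and lesion bypass, of which 79 were tested, both falls and rises were called. In Type D 5 fell and 3 rose, beside 2.44% and 4.49% of all genes. In Type V 6 fell and 3 rose, beside 1.9% and 3.39%. The 4 deepest falls in Type D were H2ax, the histone variant phosphorylated at breaks (-2.78 ± 0.246 log2, adjusted p = 3.69e-07), Neil3, a glycosylase (-2.56 ± 0.434 log2, adjusted p = 0.000468), Gen1, a resolvase (-2.0 ± 0.343 log2, adjusted p = 0.00052) and Clspn, which bridges Atr to Chek1 (-1.5 ± 0.361 log2, adjusted p = 0.00894). The same 4 fell in Type V, by -1.60, -1.73, -1.56 and -1.25 log2 (adjusted p = 0.000257, 0.0137, 0.00568 and 0.0325). The other called falls were Faap24, a partner of the Fanconi core complex, in both types (-1.24 and -1.3 log2) and Rmi2 in Type V (-1.02 log2).

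The same 3 genes rose in both types, beside 4.49% and 3.39% of all genes called higher in Type D and Type V. Polk, a bypass polymerase, went from 14.3 ± 1.64 to 87.3 ± 24.3 TPM (SD, n = 3) in Type D, and in Type V from 11.2 ± 1.06 to 80.8 ± 19.5 TPM (2.5 and 2.72 log2, adjusted p = 2.48e-07 and 9.1e-08). Ercc5, the nuclease that cuts on the other side of the lesion from Ercc1, rose by 2.72 ± 0.313 and 2.33 ± 0.313 log2 (adjusted p = 7.59e-06 and 6.22e-05). Rev1, a scaffold of bypass, rose by 1.42 ± 0.4 and 1.53 ± 0.4 log2 (adjusted p = 0.0232 and 0.0181). The median of the 79 was 0.02 log2 in Type D and -0.02 log2 in Type V, against -0.49 and -0.34 log2 for the 45 members. Both lists were chosen with earlier results of these data known, so this contrast may reflect the choice and tests nothing.

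Whether lines that die and lines that stay viable differ in this response was tested directly. In the difference of the restoration change between the types, limma called 0 of the 45 members, 0 passed at an unadjusted p under 0.05, and 0 were called with the block. Over all genes 0.0284% were called. The fitted change was lower in Type D for 32 of the 45 members, with a median difference of -0.08 log2. The largest differences were those of Ercc1 (0.60 ± 0.446 log2), Fancd2 (-0.55 ± 0.536 log2) and Eme1 (-0.49 ± 0.338 log2), all with an adjusted p of 1 without the block. Without the block each is smaller than 2 SE. With the block the SE of the Ercc1 difference was 0.175 log2 and its adjusted p 0.0558, while those of Fancd2 (adjusted p = 0.44) and Eme1 (0.264) were 0.398 and 0.251 log2. Proliferation genes differed in the same direction as the median, by a median of -0.44 log2, with 0 of 20 called (6 at an unadjusted p under 0.05) and 2 called with the block, Ccnb1 (-1.36 log2, adjusted p = 0.0269) and Aurkb (-1.33 log2, adjusted p = 0.0461).

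Levels were then compared between the types. Each type has 3 lines, but the spread was estimated from all 24 libraries, which are repeated samples of 6 lines. With group means subtracted, libraries of a line were correlated (r = 0.599 to 0.929), and no block by line was fitted for these comparisons. The tests between types, in Control and in Restored, therefore treat repeats of a line as independent. Their adjusted p and shares called may overstate the evidence. In Control, limma called 0 of 45 members (3 at an unadjusted p under 0.05), where 8.83% of all genes were called. By adjusted p alone 1 member passed, against 13.1% of genes. This was Fancl, lower in Type D at 13.3, 14.2 and 17.5 TPM than in Type V at 20.9, 22.4 and 25.9 TPM (-0.60 ± 0.177 log2, adjusted p = 0.0314). Fibroblast markers stood apart between the types in the same way, as given above, and their part in the differences of level was not tested.

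In Restored, limma again called 0 of 45 members (6 at an unadjusted p under 0.05), against 9.44% of genes. By adjusted p alone 2 passed, against 14.8% of genes, and both were Fanconi genes lower in Type D: Fancl at 10.7, 8.25 and 10.7 TPM against 14.1, 14.1 and 19.6 TPM (-0.63 ± 0.177 log2, adjusted p = 0.0212) and Fanca at 11.5, 5.52 and 11 TPM against 21, 11.8 and 25.7 TPM (-0.98 ± 0.324 log2, adjusted p = 0.0486). Of 20 proliferation genes, 5 were also called lower in Type D than in Type V in Restored, and 0 in Control. Leaving out 1 line called 1 member in 3 of 6 fits: Rad51b without 4716-11 (-1.28 log2, adjusted p = 0.0307), Fanca without 4716-10 (-1.29 log2, adjusted p = 0.0111) and Ercc1 without 4716-14 (1.09 log2, adjusted p = 0.0121).

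Without a test, 7 members had all 3 Type D lines below all 3 Type V lines in Control (Bard1, Rad51c, Rmi1, Fanca, Fancc, Fancl and Polq), and 1, Chek2, had them above. Among all genes 19.5% lay below and 11.9% above. In Restored 4 lay below (Eme1, Fanca, Fancc and Fancl) and 1 above (Palb2), against 16.1% and 13.1%. 

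**Figure D4:**
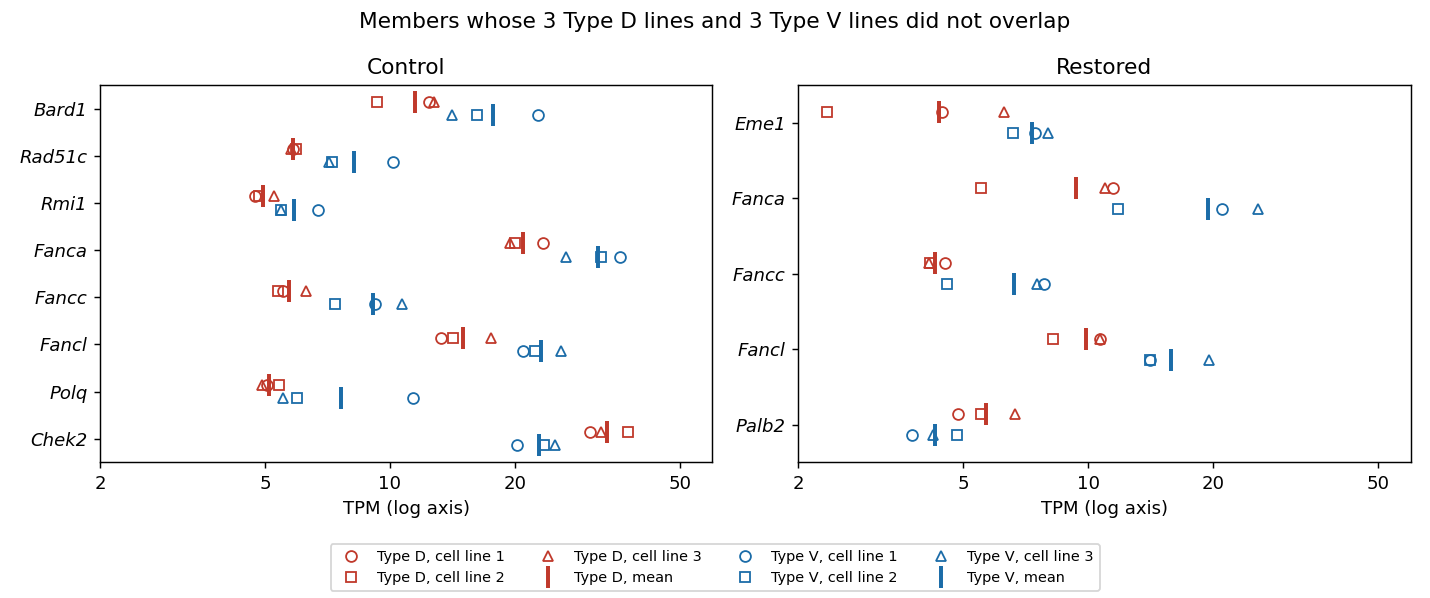
TPM on a log axis of the members whose Type D lines (red) and Type V lines (blue) did not overlap, in Control on the left and Restored on the right. Open symbols are cell lines and bars are means of 3 lines. Fanca, Fancc and Fancl appear in both panels with Type D below Type V, and Chek2 and Palb2 are the members with Type D above.

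CsA alone made small changes. In Control lines, limma called 0 of the 45 members in Type D, in Type V and over all 6 lines, 0 at an unadjusted p under 0.05 and 0 with the block, and the share called among all genes was 0% in each of the 3 comparisons. Over 6 lines the member changes ran from -0.32 log2 (Fanci) to 0.12 log2 (Rad51b), with a median of -0.16 log2 against -0.02 over all genes. In 13 members the level was lower with CsA in 6 of 6 lines, namely Bard1, Rad51c, Rad51ap1, Rad54l, Eme1, Fanca, Fancb, Fanci, Fancm, Brip1, Topbp1, Polq and Msh6, and in 0 members it was higher in all 6. This held for 8.46% and 5.44% of all genes. Fitted changes of the proliferation list were below 0 for 20 of 20 genes, with a median of -0.25 log2, and its part in the shift was not tested.

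Restoration was also compared within CsA. With CsA present in both conditions, 8 members fell and 1 rose in Type D, against 1.88% and 3.53% of all genes, and 9 fell and 0 rose in Type V, against 1.77% and 2.84%. In Type D the fallers were Rad51ap1, Rad54l, Exo1, Eme1, Fancb, Fancd2, Fanci and Polq, and Msh6 rose by 1.13 log2 (adjusted p = 0.00739). In Type V they were the same genes and Bard1. Fancd2 changed by -1.84 log2 in Type D and by -1.93 log2 in Type V, and Eme1 by -1.73 and -1.60 log2. Fitted to the compared groups alone, 6 members were called in Type D and 1, Rad51ap1, in Type V. These counts leaned on single lines, with 4 and 5 members called in Type D without 4711-1 and 4711-18, and 5 and 4 in Type V without 4711-11 and 4716-10. Rad51ap1 and Eme1 stayed called in each such fit in both types, and Msh6 lost its Type D call without 4716-11 (adjusted p = 0.169).

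Adding CsA to restored lines called 0 members in either type (limma; 0 at an unadjusted p under 0.05 and 0 with the block), where 0.0142% of genes were called in Type D and 0% in Type V. Small changes of opposite sign predominated. In Type D 31 of 45 fitted changes were above 0 (median 0.09 log2), and 16 members were higher in all 3 lines, against 20% of genes. In Type V 40 of 45 were below 0 (median -0.18 log2), and 27 were lower in all 3 lines, against 20.5% of genes. Fancd2 moved from 6.44, 1.82 and 8.66 to 7.36, 3.01 and 7.96 TPM in the Type D lines, and in Type V from 4.23, 6.57 and 5.73 to 2.95, 4.12 and 2.79 TPM.

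Proliferation genes moved alongside in Type V, with a median of -0.48 log2 and 20 of 20 below 0. In Type D their median was 0.06 log2, and 9 of 20 were below 0. The medians of the Type D lines were -0.07, 0.37 and -0.03 log2 for this list, against 0.05, 0.18 and 0.03 log2 for the 45 members. In 7 members (Brca1, Brca2, Exo1, Fanca, Atm, Chek2 and Topbp1) the level with CsA was higher in all 3 Type D lines and lower in all 3 Type V lines, as in 3.06% of all genes. A test of this difference between the types, added after the pattern was seen, called 0 members (0 at an unadjusted p under 0.05, 0 with the block) and 0% of genes. Chek2 differed most by p among the 7, at 0.34 log2 in Type D against -0.22 log2 in Type V (difference 0.55 ± 0.346 log2, unadjusted p = 0.127).

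**Figure D5:**
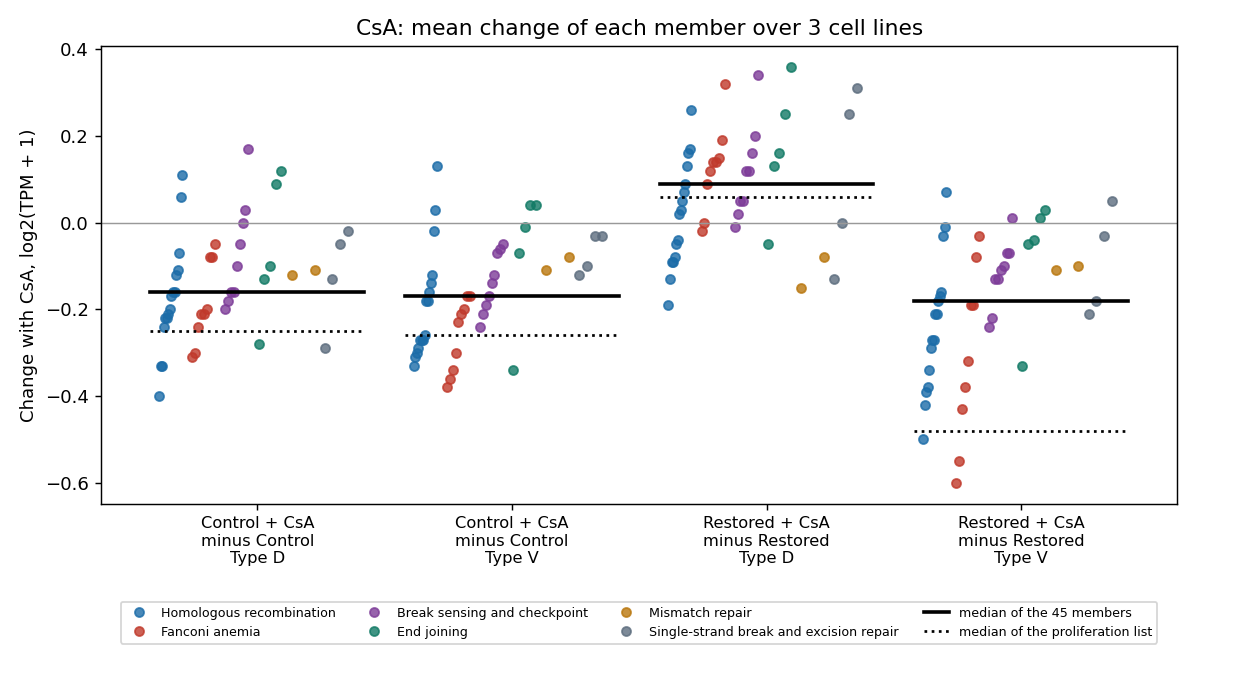
Change with CsA on the log2(TPM + 1) scale of each of the 45 members (points, mean of 3 lines, colored by gene group) in Control and Restored lines of each type, with the median of the members as a solid bar and that of the proliferation list as a dotted bar. Member medians are -0.16, -0.17, 0.09 and -0.18 log2, so the restored Type D lines are the one setting with a median above 0.

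Some members share sequence with a neighbor, and the study does not state whether strand was used in counting. In GENCODE release M21, 35.8% of Rad54b exon bases overlap Fsbp on the same strand. On the opposite strand, 18.6% of Fancc, 16% of Fanci (Polg), 15.4% of Rad54l (Lrrc41), 13.7% of Fancl (Vrk2), 10.7% of Eme1 (Lrrc59) and 10.5% of Fanca (Zfp276) exon bases overlap another gene. Reads in those stretches cannot be assigned with certainty. Rad51ap1, Fancb, Exo1, Bard1 and Polq have no such overlap.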

How the data were processed

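RNA-seq was measured in 24 libraries of 6 cell lines at 72 h (TruSeq Stranded mRNA, single-end reads). The authors deposited TPM values, which were used as deposited; each library sums to 1000000, so TPM is relative and holds no depth. The methods name Kallisto or HISAT2 and both mm10 and GRCm39 (the submitters' processing notes list HISAT2, mm10 and GRCm39), and which of them made the table is not given in the sources used here. The members and gene lists were chosen with earlier results of these data known.

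Genes with TPM of at least 1 in at least 3 libraries were tested (14104) on log2(TPM + 1), a scale that understates changes of low genes. limma 3.58.1 in R 4.3.3 was fitted with 1 coefficient for each of 8 groups (eBayes with trend), two-sided, with Benjamini-Hochberg adjustment over all genes in each of 12 comparisons. Called means adjusted p under 0.05 and at least 1 log2, as in the study. Errors of changes are SE. The difference of the CsA change between types was added after seeing the data.

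The 4 libraries of a cell line are paired by the line named in the labels. With each group's mean subtracted, same-line libraries had correlations of r = 0.599 to 0.929 (36 pairs) and libraries of different lines -0.675 to 0.0438 (72 pairs), and 0 libraries were identical. Subtracting a mean of 3 lines by itself pushes correlations between different lines below 0, so their sign is no evidence of pairing. The block by line was an alternative, beside pseudocount, filter, scaling, fits to the compared groups alone and each line left out. Values per library are given for the 3 members with the largest mean restoration change over both types in recombination, Fanconi and checkpoint groups and the 2 in each other group, and of other pathway genes changes for at most the 4 largest called in each direction. One marker gene is not reported here. Sequences and motifs come from RefSeq (GRCm38.p6) and gene models from GENCODE M21, which may differ from those behind the table. Scripts were tested on simulated data. Figures used matplotlib 3.10.9 in Python 3.11.15.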

Additional observations from a re-analysis of the deposited data

Results flagged for a closer look

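In 8 instances every line of one type moved against every line of the other. Upon restoration this was Nbn, with a change in Type D that exceeded that in Type V by 0.25 log2. Its changes were 0.06, 0.05 and 0 log2 (to 2 decimals) in the Type D lines and -0.37, -0.21 and -0.05 log2 in the Type V lines, and the difference was not called by limma (unadjusted p = 0.534, adjusted p = 1). With CsA added to restored lines, Type D exceeded Type V by 0.64 log2 in Brca1, 0.38 in Brca2, 0.63 in Exo1, 0.52 in Fanca, 0.31 in Atm, 0.55 in Chek2 and 0.29 in Topbp1. The differences of these 7 had unadjusted p between 0.127 and 0.518 and an adjusted p of 1 in limma. The median difference of the 20 proliferation genes was 0.59 log2, and its part was not tested. Among all genes, 3.06% showed this pattern with CsA and 1.74% that of Nbn.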

How the results depend on the processing

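Counts of called members rested on how the spread was estimated and on single lines. Fitted to the compared groups alone, 4 members were called on restoration in Type D and 4 in Type V, and 1 with CsA in Type V; that fit has fewer libraries behind each estimate. Leaving out 1 line gave 7 to 11 calls in Type D, 4 to 10 in Type V, 4 to 9 and 4 to 10 with CsA, and 0 to 1 between types in Restored. Between types, adjusted p alone gave 1 member in Control and 2 in Restored, and a pseudocount of 0.1 gave 1 in Restored (Fanca, -1.05 log2). The cell line block was not fitted between types, where repeated libraries of a line were treated as independent. Quantile normalization moved the median of the single-strand break and excision group in Type D to 0.06 log2, and the cause was not tested. The cell line block gave 13 and 10 calls on restoration and 9 and 10 with CsA, adding Blm and Brca1 and ending no call named above; it changed no other call of the members. No direction reversed. Other settings kept these counts within 1.5 times the reported ones. Unknown depth leaves the error of low levels, such as Polq after restoration, unmeasured.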
